A study of Mus musculus with 8 samples.

Results

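The synaptonemal complex and its HORMA domain partners were followed through 9 genes, Sycp1, Sycp2, Sycp3, Syce1, Syce2, Syce3, Tex12, Hormad1 and Hormad2. All 9 have a probe on the array, among 19053 genes named there, and the platform annotation gives them 10 of its 45281 probes. The gene list was set by protein function, with earlier results of these data known. Whole testes were taken at 16 dpp (days post partum) from 4 Tex19.1-/- males and from 4 Tex19.1+/- littermates as controls. Per the study, the mutation had been backcrossed to C57BL/6 from an earlier mixed background. How much of the latter remained is not given. The RNA of each animal was hybridized to its own Illumina Mouse WG-6 v2.0 Beadchip. Each control is labelled Tex19.1+/-, while the study's methods name both Tex19.1+/+ and Tex19.1+/- animals as controls. The labels were followed here.

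The synaptonemal complex is the protein ladder that joins homologous chromosomes during meiotic prophase. SYCP2 and SYCP3 build its lateral elements along the chromosome axes, SYCP1 spans the gap as the transverse filament, and SYCE1, SYCE2, SYCE3 and TEX12 form the central element where the filaments meet. HORMAD1 and HORMAD2 coat axes that have not yet synapsed and are stripped from them as synapsis proceeds. These genes are switched on around meiotic entry, so at 16 dpp their RNA is thought to come mainly from spermatocytes of the first wave of spermatogenesis. The testis also holds spermatogonia and somatic cells, and the cell source of the RNA was not measured here.

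Of the 4 controls, 4 had a detected Tex19.1 probe, against 0 of the 4 Tex19.1-/- testes, where it read at least 4.33-fold lower (limma adjusted p = 6.3e-07). The sources used here do not place the probe relative to the deletion. A bound of this kind sets the bright group against the lowest detected signal of each array. The mean signal of an array was 90.8 to 159 for controls and 79.0 to 126 for Tex19.1-/- testes, and 13720 to 15876 probes were detected per array. Among markers of the tissue, Ddx4 and Dazl of germ cells and Amh and Sox9 of Sertoli cells were detected in all 8 testes, while Mael of germ cells and Gata4 of Sertoli cells were not detected in any. A probe counted as detected in an array when its detection p was under 0.01. Values are log2 signals after quantile normalization, on which only the same probe can be compared between animals, and the number of arrays limits the precision.

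Only 4 of the 10 probes gave a signal that could be compared between genotypes. The detected probes were 1 each of Sycp2, Syce1, Syce3 and Hormad2. The probes of Sycp1, Sycp3, Syce2, Tex12 and Hormad1, and the other probe of Sycp2 (ILMN_1257018), were not detected in any of the 8 testes. These 6 probes had log2 signals from 4.92 to 5.90, below the lowest detected signal of every array (5.93 to 6.06), and detection p-values from 0.040 to 0.96. The closest to detection was Sycp1, the transverse filament gene, at 5.64 to 5.85 in controls and 5.53 to 5.90 in Tex19.1-/- animals. The lateral element gene Sycp3 read 5.42 to 5.73 in controls and 5.49 to 5.76 in Tex19.1-/- animals, and the central element genes Syce2 and Tex12 read 5.34 to 5.78 and 5.57 to 5.76 in controls. Syce2 and Tex12 read 5.51 to 5.84 and 5.52 to 5.66 in Tex19.1-/- animals. Hormad1 read 5.33 to 5.73 in controls and 5.53 to 5.73 in Tex19.1-/- animals. No fold is given for these 5 genes, since neither genotype has more than an upper limit. The 2 probes of Sycp2 differed in detection within the same RNAs, ILMN_1257018 with 0 and ILMN_2440514 with 8 of 8 testes, so an undetected probe here does not show that a gene is silent.

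**Figure D1:**
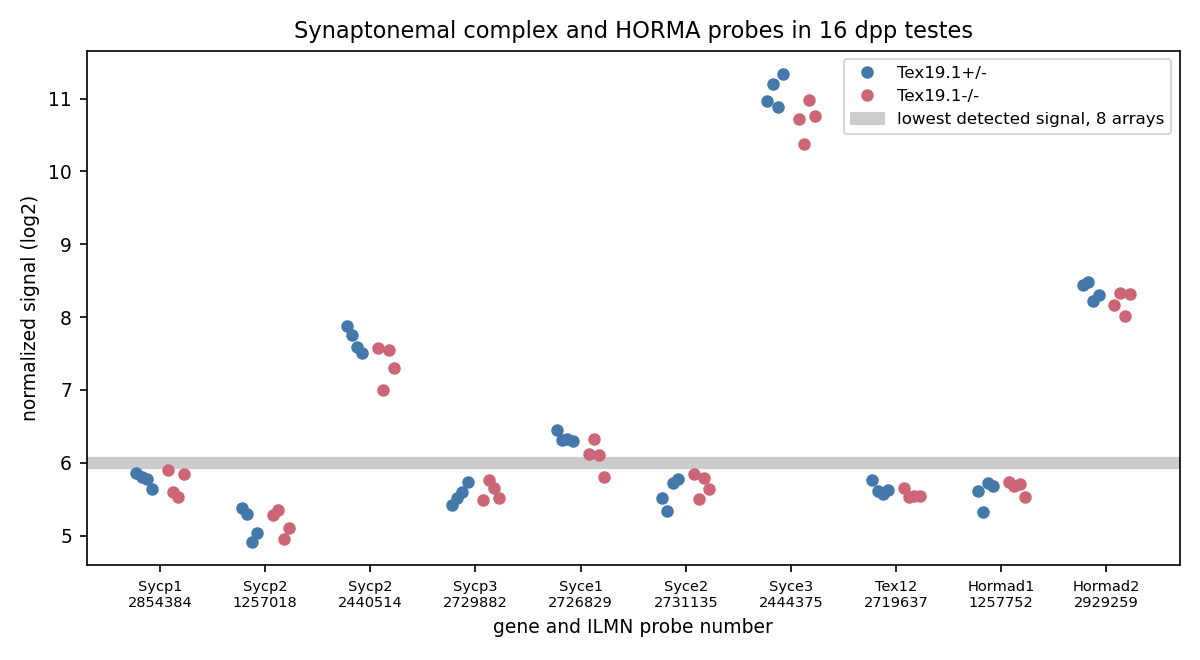
Normalized log2 signal (vertical axis) of the 10 probes (horizontal axis, gene and probe number), with 1 point for each animal, Tex19.1+/- in blue and Tex19.1-/- in red. The grey band spans the lowest detected signal of the 8 arrays (5.93 to 6.06), and 6 probes lie wholly below it, with no detected array in either genotype.

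Promoter sequence is shown as a feature that the choice of genes did not use, although the motifs searched in it were chosen with the promoters and the detection of the probes already seen. In mouse, E2F6 and the E-box binding pair MGA and MAX are known to keep many germline genes silent in somatic cells, and MYBL1 is known to drive genes of pachytene. RefSeq promoters (GRCm38.p6) were found for 9 of 9 genes, and the 250 bases before each gene start were searched on both strands for the E-box CACGTG, the E2F core GCGGGA and the MYB motif AACNGTT. The E-box lay before 5 of the 9 genes (Sycp1, Sycp3, Syce2, Tex12 and Hormad1) and before 6.86% of 27025 genes in the table. The E2F core lay before 4 (Sycp3, Syce2, Tex12 and Hormad1), against 18.8% of all genes, and the MYB motif before Sycp1 alone, against 4.27%. The 9 genes have 12 promoters, and the most G and C rich promoter of each gene was 53.2 to 68% G and C. The median over all single promoters was 52.4%, which is not a like measure, since it takes no highest value per gene. Sycp2, Syce1, Syce3 and Hormad2 had no match to any of the 3 motifs. The 5 genes with an E-box are those with no detected probe, which is no independent observation, since the motifs were picked with detection known. No test was run on these matches, and a missing match says only that these letters are not in the window. The stretches around the E-box are printed 5′ to 3′ on the strand of the gene, with each CACGTG in capitals, and lie at chr3:102936149-102936234 (minus strand) for Sycp1, chr10:88459483-88459568 (plus) for Sycp3, chr8:84872130-84872215 (plus) for Syce2, chr9:50561316-50561401 (minus) for Tex12 and chr3:95559580-95559665 (plus) for Hormad1.
Sycp1: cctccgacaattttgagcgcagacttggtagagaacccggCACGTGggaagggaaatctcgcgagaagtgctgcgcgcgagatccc
Sycp3: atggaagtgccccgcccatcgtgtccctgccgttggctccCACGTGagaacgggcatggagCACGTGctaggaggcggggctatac
Syce2: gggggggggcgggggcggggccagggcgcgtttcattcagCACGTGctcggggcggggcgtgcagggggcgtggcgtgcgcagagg
Tex12: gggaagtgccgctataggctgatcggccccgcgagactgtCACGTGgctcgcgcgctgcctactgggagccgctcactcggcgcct
Hormad1: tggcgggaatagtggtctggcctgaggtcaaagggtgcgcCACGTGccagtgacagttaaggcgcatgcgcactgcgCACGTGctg
The first E-box base lies 94, 64, 88, 93 and 57 bases before the gene start in this order, and Sycp3 and Hormad1 each hold a second E-box within the stretch.

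For the lateral element, Sycp2 (ILMN_2440514) read 7.87, 7.76, 7.59 and 7.50 in control replicates 1 to 4. In Tex19.1-/- replicates 1 to 4 it read 7.58, 6.996, 7.55 and 7.31. The genotypes overlap, with Tex19.1-/- replicates 2 and 4 below every control and replicates 1 and 3 within the control range. The means were 7.68 ± 0.16 (SD, n = 4) and 7.36 ± 0.27 (SD, n = 4), which is -0.32 on the log2 scale for Tex19.1-/- minus control (standard error 0.14, 95% interval -0.62 to -0.03, limma adjusted p = 0.307) and does not pass. The change was -0.20 without Tex19.1-/- replicate 2, the animal with the lowest value, and -0.11 with median scaling of the arrays. That scaling moved the median of all probes from 0.02 to 0.14, and relative to this median Sycp2 was at -0.25. Median scaling has no quantile step, and the change was -0.35 with cyclic loess normalization and -0.40 with neqc background correction. In bulk RNA of this kind, fewer spermatocytes and less RNA in each spermatocyte cannot be told apart.

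For the central element, Syce3, which encodes a small protein needed to start synapsis in mouse, read 10.97, 11.20, 10.89 and 11.34 in control replicates 1 to 4. It read 10.73, 10.37, 10.98 and 10.76 in Tex19.1-/- replicates 1 to 4. Tex19.1-/- replicate 3 was above control replicates 1 and 3, and the other Tex19.1-/- animals were below all controls. The means were 11.10 ± 0.21 and 10.71 ± 0.25 (SD, n = 4 each), which is -0.39 on the log2 scale for Tex19.1-/- minus control (standard error 0.14, 95% interval -0.69 to -0.09, limma adjusted p = 0.201). The signal was 1.31 fold lower and does not pass the test. Median scaling gave -0.04, or -0.18 relative to the median of all probes, while cyclic loess normalization gave -0.45 and neqc -0.39.

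Syce1, which encodes a central element protein that binds SYCE3 and the transverse filament, read 6.46, 6.32, 6.32 and 6.30 in control replicates 1 to 4. It read 6.11, 6.33, 6.10 and 5.81 in Tex19.1-/- replicates 1 to 4, and Tex19.1-/- replicate 4 was the 1 animal of 8 in which it was not detected. Tex19.1-/- replicate 2 lay within the control range, and the other Tex19.1-/- animals lay below every control. The means were 6.35 ± 0.07 and 6.09 ± 0.21 (SD, n = 4 each), which is -0.26 on the log2 scale for Tex19.1-/- minus control (standard error 0.12, 95% interval -0.51 to -0.01, limma adjusted p = 0.336). The signal is close to background, and the change was -0.77 with signals under 0 set to 0, -0.45 with neqc background correction and -0.17 without Tex19.1-/- replicate 4, while its adjusted p ranged from 0.169 to 0.694 over the alternatives.

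For the HORMA axis proteins, Hormad2 (ILMN_2929259), whose product marks unsynapsed axes and takes part in the checkpoint that removes cells with unsynapsed chromosomes, read 8.43, 8.48, 8.22 and 8.30 in control replicates 1 to 4. It read 8.16, 8.33, 8.01 and 8.32 in Tex19.1-/- replicates 1 to 4. Replicates 2 and 4 of the Tex19.1-/- group lay within the control range. The means were 8.36 ± 0.12 and 8.21 ± 0.15 (SD, n = 4 each), which is -0.15 on the log2 scale for Tex19.1-/- minus control (standard error 0.11, 95% interval -0.39 to 0.08, limma adjusted p = 0.593). The value was -0.09 without Tex19.1-/- replicate 3. Median scaling turned it to 0.11, which is -0.03 relative to the median of all probes under that scaling. In the other settings the change of Hormad2 stayed below 0, with -0.18 for cyclic loess normalization and -0.17 for neqc.

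**Figure D2:**
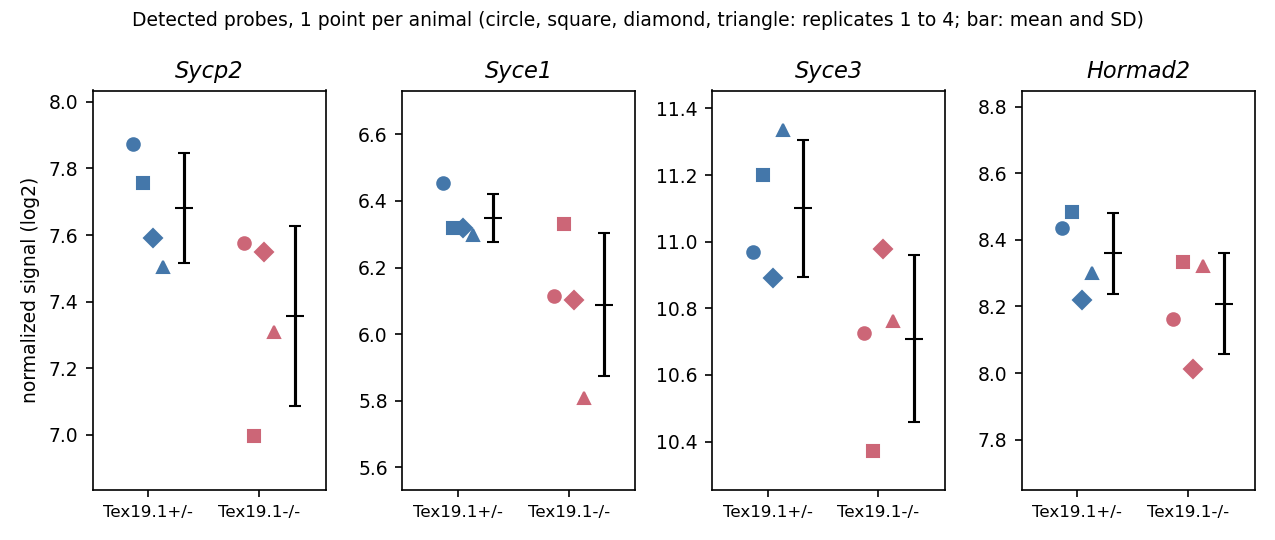
Normalized log2 signal (vertical axis, each panel spanning the same range of 1.2 log2 units) of the 4 detected probes by genotype (horizontal axis). Each point is an animal, with the replicate number given by its shape, and bars give the mean and SD, and in every panel the genotypes overlap.

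Of the 4 detected probes, 0 were called lower and 0 higher, a call being a limma adjusted p no larger than 0.01, where 1.63% of all 19089 detected probes were called lower and 0.141% higher. With 0.05 as the limit on the adjusted p the count was still 0, against 2.84% called lower among all probes. At an unadjusted p under 0.05, 3 of the 4 (Sycp2, Syce1 and Syce3) were lower, against 7.93% of all probes. In 0 of the 4 was every Tex19.1-/- animal below every control, which was so for 6.06% of all probes, and in 0 was every one above, which was so for 4.18%. The sign of the change was below 0 for 4 of 4, against 43.9% of all probes. The median change was -0.29 over the 4 probes and 0.02 over all probes. The lower ends of the 95% intervals lay between -0.69 and -0.39 as normalized here. They are no firm limit for Syce1, which is close to background and was at -0.77 with a standard error of 0.35 when signals under 0 were set to 0. The smallest decrease among the 311 probes called lower was -0.49 and their median was -1.03.

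Variation from animal to animal was compared among the 4 genes, whose values share the same arrays. After subtraction of the genotype means, each detected probe was set against the mean of the other 3 over the 8 animals, and the Pearson correlations were 0.18 for Sycp2, -0.15 for Syce3, -0.40 for Hormad2 and -0.43 for Syce1. Tex19.1-/- replicate 2 was the lowest of all 8 animals for Sycp2 and Syce3 and the highest of its genotype for Syce1 and Hormad2. The mean log2 signal over the 4 genes was 8.26 to 8.44 in controls and 8.01 to 8.16 in Tex19.1-/- animals, given as a description with no test. Among 10898 other genes, those whose deviations from the genotype means followed this mean most closely were Tesmin, Dbnl and Siglech, with correlations of 0.956, 0.941 and 0.940 over 8 animals. They were picked as the highest of all these genes, and how high the largest would be by chance was not tested. The mean is also that of 4 genes that did not vary together. Tesmin, a testis gene of spermatocytes, changed by -0.85 (limma adjusted p = 0.0017), while Dbnl and Siglech had changes of -0.08 and -0.14 with adjusted p of 0.774 and 0.571.

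Other genes of the chromosome axis and of synapsis mostly did not pass either. Of 18 genes listed as partners, 13 have a probe and 9 were detected, of which 1 fell and 0 rose by the same call (1.63% and 0.141% of all probes), with a median log2 change of -0.14. The list was chosen with earlier results of these data known. The gene that fell was Meikin, which in mouse protects cohesin at the kinetochore in meiosis I and is no part of the synaptonemal complex, at -0.84 on the log2 scale (standard error 0.14, limma adjusted p = 0.0032), and it was detected in 4 controls and 2 Tex19.1-/- animals. The next by moderated t were 4930432K21Rik (Brme1), a partner of BRCA2 in meiotic recombination, at -0.51 (adjusted p = 0.0796) and Syce1l, a relative of Syce1, at -0.39 (adjusted p = 0.168, and -0.15 at its other detected probe). The call of Meikin ended with median scaling, with signals under 0 set to 0, and without Tex19.1-/- replicate 1, 2 or 4.

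Among genes that make and repair meiotic DNA breaks, 3 of 13 detected genes (23 listed, 17 with a probe) fell and 0 rose (1.63% and 0.141% of all probes). Their median log2 change was -0.23. Like the partners, these genes were listed with earlier results of these data known, so the count is no independent observation. Psmc3ip (Hop2), which helps DMC1 in strand exchange, was lower by a log2 difference of -0.93 (standard error 0.13, limma adjusted p = 0.0011). Spo11, which makes the breaks, and Mlh3, a crossover factor, fell by 0.63 and 0.65 (limma adjusted p = 0.0042 and 0.0073). The other detected probe of Mlh3, which was detected in 2 controls and 0 Tex19.1-/- animals, read -0.13 (adjusted p = 0.669). The count of these genes called was 0 with median scaling or with signals under 0 set to 0, and 1 with neqc. It was also 1 when control replicate 2 or either of Tex19.1-/- replicates 1 and 4 was left out, and 2 when any other animal was left out.

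Genes listed here as late pachytene, taken to be of a later stage than the first expression of the synaptonemal complex genes, are set beside the latter with no test of the difference. Late pachytene is the name of the list, and the stage at which each of its genes starts was not measured. Of 12 detected genes (16 listed), 9 fell and 0 rose (1.63% and 0.141% of all probes) and the median log2 change was -1.49. The list was chosen with earlier results of these data known, so this count is no independent observation. The count was 0 with median scaling, 1 with signals under 0 set to 0 and 3 with robust eBayes and an intensity trend. It was 8 with cyclic loess normalization and 9 with neqc. Median scaling has no quantile step and keeps the unequal shifts of the arrays. The 10 genes detected in some Tex19.1-/- animal had changes from -3.11 (Ldhc) to -0.65 (Hspa2 at its brighter probe, and -0.98 at the other). The other 2, Adam3 and Pgk2, gave 0 detected signals in Tex19.1-/- testes and have only a limit there. As normalized here, the 4 synaptonemal complex and HORMA probes, at -0.39 to -0.15, lay above this range of 1 probe per gene. Syce1 is close to background, and it was at -0.45 with neqc and -0.77 with signals under 0 set to 0. A dimmer probe of Spag6l, detected in 0 controls and 1 Tex19.1-/- animal, lay above the 4 probes at -0.09 (adjusted p = 0.840), where its brighter probe was at -2.09. Piwil1 and Clgn, which with Ldhc lead the list by moderated t, changed by -2.76 and -1.60.

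**Figure D3:**
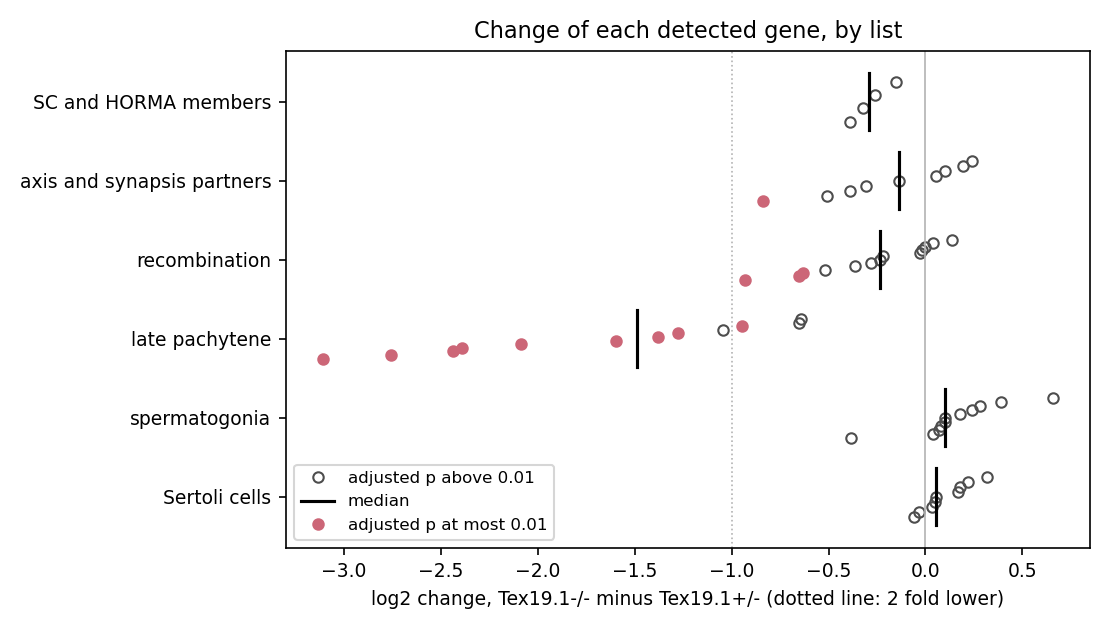
Log2 change of each detected gene, Tex19.1-/- minus Tex19.1+/- (horizontal axis), by gene list (vertical axis), with filled red points for called genes (limma adjusted p no larger than 0.01) and a vertical bar for the median. As normalized here, the 4 members lie between -0.39 and -0.15 with 0 called, while late pachytene genes reach -3.11 with 9 called. Members and lists were chosen with earlier results of these data known.

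Summed levels of markers of germ cell stages and of the somatic cells around them are given beside these values. Each sum is of shifted and normalized values put back on a linear scale, so a gene at background still adds to it. The summed linear signal of the 12 late pachytene genes was 17634 to 27264 in controls and 6208 to 10322 in Tex19.1-/- animals, without overlap. The 4 detected of 5 general germ cell genes summed to 1731 to 2119 in controls and 1872 to 2313 in Tex19.1-/- animals, and 0 of them were called. Ddx4, an RNA helicase of germ cells, had a log2 difference of -0.33 (limma adjusted p = 0.153), with Tex14 at -0.13, Dazl at 0.15 and Dnd1 at 0.06. The 11 detected of 14 spermatogonial genes summed to 3468 to 3597 in controls and 3973 to 4455 in Tex19.1-/- animals, without overlap, and 0 were called, while Gfra1, Stra8 and Dmrt1 were not detected. A linear sum weighs the brightest genes most. The median log2 change of the 11 genes was 0.10, from -0.38 (Id4, detected in 3 controls and 0 Tex19.1-/- animals) to 0.66 (Ccnd2). The 9 detected of 12 Sertoli cell genes summed to 33156 to 35026 in controls and 34678 to 38155 in Tex19.1-/- animals, which overlap, and 0 were called. The sums of the Leydig, myoid, macrophage and endothelial lists overlapped between genotypes too, with 0 genes called. Where the genes of a list are dim, background is a large part of its sum, which is then a weak measure of cell content. The part of cell composition in the values of Sycp2, Syce1, Syce3 and Hormad2 was not tested.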

How the data were processed

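Per the methods and the submitters' processing notes, the authors used BeadStudio to subtract background and deposited an intensity for each of 45281 probes and 8 arrays, which can fall below 0, with a detection p-value beside it. They also deposited log2 values, log-transformed and quantile-normalized in lumi. Versions of both programs are not given in the sources used here. Here every array's intensities were moved up so that the lowest was 1, put on a log2 scale and quantile-normalized (R 4.3.3), which came within 0.0144 of the deposited log2 table. The 19089 probes (42.2%) detected at p under 0.01 on 1 or more arrays were kept, and genotypes were compared with limma 3.58.1 (lmFit and eBayes, all 8 arrays, 6 residual degrees of freedom), with Benjamini-Hochberg adjustment over all kept probes. The code was tested on simulated data. A gene of a list is represented by its kept probe of highest mean. Figures were drawn with matplotlib 3.10.9.

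Symbols come from the platform annotation, updated with RefSeq (GRCm38.p6): 16257 kept probes have 1 symbol, 7 several and 2825 none. Probe sequences and genomic positions of probes were not used here. The members and lists were chosen with earlier results of these data known. The motifs were chosen after the promoters and the results, detection included, had been seen. All member probes are described, with the 3 genes of largest moderated t from each of the 3 meiotic lists and the 3 genes most like the mean of the members. Other list genes that are named were chosen after their values were seen.

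Replicate numbers 1 to 4 occur in both genotypes. After subtraction of genotype means, same-numbered animals correlated at 0.21, 0.52, 0.10 and 0.23 (0.103 for number 3), each above 0.1, so animals of 1 number were treated as pairs for the blocked alternative, on the data alone. Control replicates 3 and 4 correlated best with Tex19.1-/- replicates 4 and 3. The design text counts 4 separate animals per genotype, so the spread is between animals. Alternatives were other normalizations and background corrections, detection filters, variance models, the replicate block, a threshold of 0.05 and each animal left out in turn.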

Additional observations from a re-analysis of the deposited data

Results flagged for a closer look

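At the Syce1 probe, control replicate 1 (log2 signal 6.46) stood apart from the other controls, of which the nearest was at 6.32, a gap of 0.867 of the group's whole range. Without this animal the log2 change of Syce1 was -0.23. It was 1 flag in 8 groups examined (4 probes in 2 genotypes), and chance alone flags about 1 in 20 groups. The highest signal of the other 3 detected probes in controls came from replicate 1, 2 or 4.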

How the results depend on the processing

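The count of synaptonemal complex and HORMA probes called lower or higher was 0 in every alternative run, and in the 8 fits that each lacked 1 animal. With the replicate block, the adjusted p was 0.164 for Sycp2, 0.210 for Syce1, 0.132 for Syce3 and 0.443 for Hormad2, and no count of calls fell (10 late pachytene genes in place of 9). Across the alternatives the log2 change ranged from -0.44 to -0.11 for Sycp2, -0.77 to -0.17 for Syce1 and -0.48 to -0.04 for Syce3. For Hormad2 it ranged from -0.20 to 0.11, the last with median scaling, where its sign turned. Median scaling moved the median of all probes to 0.14, and relative to it the changes were -0.25, -0.31, -0.18 and -0.03 for Sycp2, Syce1, Syce3 and Hormad2. It was applied to the shifted log2 values with no quantile step, so each array kept its own shift. That shift rests on the lowest signal of an array, -112 and -98.7 in control replicates 1 and 2 and -37.8 to -29.4 in the other arrays. A median taken off each array does not undo unequal shifts on a log2 scale. The 1 axis partner gene was 0 with median scaling or with signals under 0 set to 0, and 0 to 1 with an animal left out. The 3 recombination genes were 0 with either of these, 1 with neqc and 1 to 2 with an animal left out. The 9 late pachytene genes were 0 with median scaling, 3 with robust eBayes and an intensity trend, 1 with signals under 0 set to 0, and 6 to 10 with an animal left out. With cyclic loess normalization the late pachytene count was 8, and with neqc it was 9. How far the unequal shifts account for the counts under median scaling was not tested. The 6 undetected probes limit the account to 4 of the 9 genes.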
